A study of Caenorhabditis elegans with 10 samples.

Results

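Transcripts of the proteasome were followed in untreated, mixed-stage Caenorhabditis elegans that lack a working xpa-1 gene and in the wild type. The members were all genes whose symbol in the platform annotation begins with pas, pbs, rpt or rpn, a hyphen and a digit. This rule found 33 of the 17118 genes measured, 14 of the core particle (pas and pbs) and 19 of the regulatory particle (rpt and rpn). A gene was read from a probe set annotated with 1 symbol only, and where 6 of the genes had 2 such probe sets the brighter one stood for the gene. The mutant strain was xpa-1 (ok698) I, and the wild type was Bristol N2. Both were untreated and were raised for 3 to 4 days at 20 degrees with HT115(DE3) as food. Both were harvested as mixed stages, with 5 arrays per strain. Each replicate was pooled from 10 to 20 plates. Each genotype was 1 strain, so the ok698 allele cannot be told apart from other differences between these strains.

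The proteasome is the protease that degrades proteins tagged with ubiquitin. Its core particle is a barrel of alpha and beta rings: the alpha subunits form the outer rings and the gate, and the beta subunits form the inner rings, of which 3 kinds cut peptide bonds. The regulatory particle caps the barrel: its base holds a ring of ATPases that unfold the substrate and push it in, and its lid carries the enzyme that removes ubiquitin. In worms, subunit genes are raised together by the transcription factor SKN-1A when proteasome function is impaired. XPA, the human counterpart of xpa-1, works in nucleotide excision repair of DNA.

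No proteasome gene differed between the strains by the test used. In limma, 0 of the 33 genes passed an adjusted p of 0.05 in either direction, where 0.111% of all genes tested did (0.0584% higher and 0.0526% lower in xpa-1). An unadjusted p under 0.05 was reached by 0 of the 33, against 3.32% of all genes. It was reached by 0.998% of genes with a mean log2 signal above 8, a range that held all but 3 of the members. The adjusted p was 1 for each of the 33 genes in limma. The 5 xpa-1 arrays overlapped the 5 N2 arrays for each of them. The strains did not overlap for 0.374% of all genes and for 0.214% of those above log2 8. Differences in log2 signal, with N2 subtracted from xpa-1, ran from -0.08 for pas-2 to 0.14 for rpn-6.2, with a median of 0.024 beside 0.02 over all genes.

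The precision of these differences rested on the spread among the 5 arrays of a strain, which limma draws toward a value shared by all genes. The median standard error (SE) of the 33 differences was 0.097 in log2, beside 0.191 over all genes. For 32 of the 33 genes the 95% interval of the difference lay within a 1.5-fold change either way. The exception was rpn-6.2, whose interval ran from -0.36 to 0.64. For comparison, 8593 of the 17118 genes had intervals within 1.5-fold. Among the 1403 genes with a mean log2 signal above 8, 1297 did. The median SE of those 1403 genes was 0.099, close to that of the members.

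**Figure D1:**
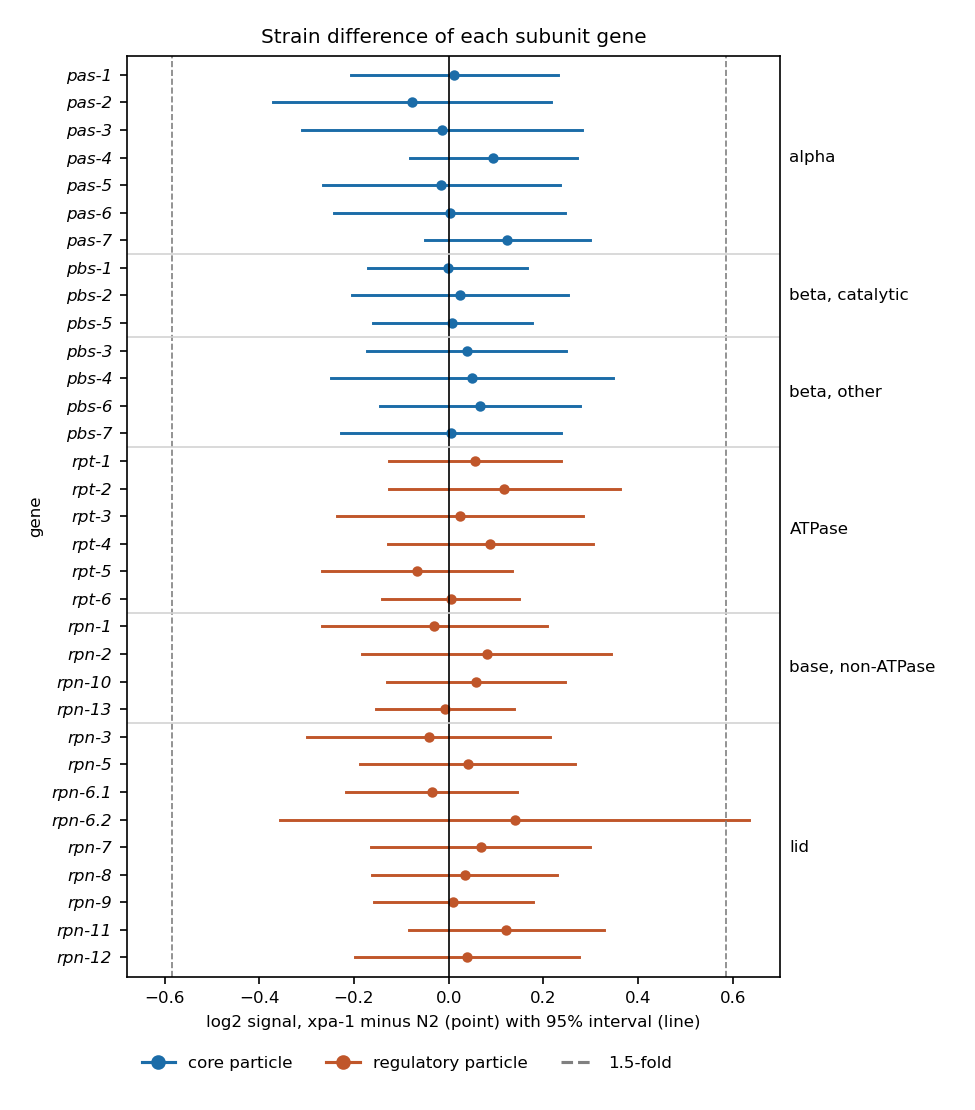
Strain difference in log2 signal, xpa-1 minus N2, for each of the 33 subunit genes, ordered by role; points are limma estimates and lines their 95% intervals (5 arrays per strain). Every interval crosses 0, and only that of rpn-6.2 reaches past the dashed lines at a 1.5-fold change.

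The strain labels were checked on the xpa-1 transcript. Its log2 signal was 1, 1.58, 1, 0 and 0 on the xpa-1 arrays, against 6.74, 6.88, 6.58, 6.52 and 6.38 on the N2 arrays (exact permutation test, two-sided, p = 0.00794, the smallest that 5 against 5 can give). A value of 0 is the floor of the file. No proteasome value was near the floor, as the lowest was 4.52. Between different probe sets the signals cannot be compared as transcript levels.

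The 7 alpha genes lay at almost the same log2 signal in both strains. Of these, pas-7 had the largest difference, 0.12 (SE 0.078, unadjusted p = 0.144 in limma), and this p was the smallest among the 33 genes. Its values were 7.86, 8.01, 7.88, 7.97 and 8.19 in xpa-1, against 7.98, 7.83, 7.82, 7.89 and 7.77 in N2. The xpa-1 array of replicate 5 was the highest of the 10, and 3 of the other xpa-1 arrays lay within the N2 range. The alpha gene pas-2 had the lowest difference of all members, -0.08 (SE 0.130). It read 9.05, 8.89, 8.93, 8.42 and 9.04 in xpa-1, and 9.08, 9.09, 8.87, 8.92 and 8.76 in N2. Here xpa-1 replicate 4 stood below the other 9 arrays.

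The other 5 alpha genes did not pass the test either. The means were 8.70 ± 0.10 in xpa-1 and 8.69 ± 0.18 in N2 for pas-1 (SD, n = 5 each, as for all means here). For pas-3 they were 9.41 ± 0.16 in xpa-1 and 9.42 ± 0.25 in N2. For pas-4 they were 9.33 ± 0.09 in xpa-1 and 9.23 ± 0.13 in N2, a difference of 0.09 (SE 0.078). The remaining alpha genes, pas-5 and pas-6, differed by -0.016 and 0.002, with SEs of 0.111 and 0.108.

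The 3 catalytic beta genes had differences from -0.002 to 0.024, none of which passed the test. The gene pbs-5 encodes the subunit with chymotrypsin-like activity. It read 8.84, 8.71, 8.93, 8.82 and 8.97 in xpa-1, and 8.95, 8.94, 8.85, 8.79 and 8.70 in N2, so that both strains covered almost the same range. Its difference was 0.008 (SE 0.075, 95% interval from -0.16 to 0.18). The gene pbs-2, for the trypsin-like subunit, read 8.67, 8.62, 8.52, 8.38 and 8.62 in xpa-1, against 8.75, 8.52, 8.57, 8.61 and 8.24 in N2. In N2 the highest value was replicate 1 and the lowest replicate 5. The gene pbs-1, for the caspase-like subunit, read 9.19, 9.23, 9.23, 9.01 and 9.25 in xpa-1, against 9.19, 9.18, 9.29, 9.25 and 9.01 in N2. One low array in each strain, xpa-1 replicate 4 and N2 replicate 5, had the same value.

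The 4 beta genes without a catalytic role had differences above 0 that did not pass the test, from 0.004 for pbs-7 to 0.066 for pbs-6. Means were 9.34 ± 0.14 in xpa-1 and 9.30 ± 0.14 in N2 for pbs-3, and 9.05 ± 0.15 in xpa-1 and 9.00 ± 0.26 in N2 for pbs-4. They were 9.14 ± 0.13 in xpa-1 and 9.07 ± 0.15 in N2 for pbs-6, and 9.00 ± 0.10 in xpa-1 and 8.99 ± 0.20 in N2 for pbs-7. The N2 spread of pbs-4 came with its replicate 5, at 8.55 against 9.06 to 9.23 on the other N2 arrays.

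Of the 6 ATPase genes of the base, 5 had differences above 0 and 1, rpt-5, below 0, and none passed the test. The gene rpt-5 read 8.39, 8.34, 8.36, 8.27 and 8.54 in xpa-1, against 8.60, 8.58, 8.44, 8.40 and 8.21 in N2. The lowest and the highest arrays were both N2 arrays, replicates 5 and 1, and the xpa-1 values lay between them. Its difference was -0.07 (SE 0.089, unadjusted p = 0.477 in limma). The largest ATPase difference was that of rpt-2, at 9.14 ± 0.13 in xpa-1 and 9.02 ± 0.20 in N2 (0.12, SE 0.108), followed by rpt-4 at 9.48 ± 0.13 in xpa-1 and 9.39 ± 0.16 in N2. Differences were 0.056 for rpt-1, 0.024 for rpt-3 and 0.004 for rpt-6. The values of rpt-6 lay between 6.61 and 6.88 in xpa-1 and between 6.69 and 6.82 in N2.

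The other base genes encode the scaffold subunits rpn-1 and rpn-2 and the ubiquitin receptors rpn-10 and rpn-13. The scaffold gene rpn-2 stood at 8.50 ± 0.16 in xpa-1 and 8.42 ± 0.21 in N2, and rpn-1 at 8.75 ± 0.16 in xpa-1 and 8.78 ± 0.16 in N2. The receptor gene rpn-10 had means of 8.59 ± 0.09 in xpa-1 and 8.53 ± 0.14 in N2. The other receptor gene, rpn-13, had the narrowest range of all members, 0.23 in log2 over the 10 arrays, with a difference of -0.008 (SE 0.065). These 4 genes were divided evenly, 2 above 0 and 2 below.

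Of the 9 lid genes, 7 had differences above 0 and 2 below. The gene rpn-11 encodes the enzyme that cuts ubiquitin from substrates before they enter the core. It read 8.65, 8.65, 8.55, 8.55 and 8.69 in xpa-1, against 8.70, 8.50, 8.61, 8.45 and 8.22 in N2. Its difference was 0.12 (SE 0.091, unadjusted p = 0.214 in limma). The N2 values enclosed all 5 xpa-1 values. Its partner in the lid, rpn-8, differed by 0.034 (SE 0.086), with means of 8.83 ± 0.12 in xpa-1 and 8.80 ± 0.13 in N2.

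The remaining lid genes encode structural subunits that share the PCI fold. The lowest lid difference was that of rpn-3, -0.04 (SE 0.114). It read 9.45, 9.47, 9.41, 9.09 and 9.45 in xpa-1, and 9.62, 9.52, 9.41, 9.43 and 9.10 in N2, with 1 array of each strain well below the rest. Differences were 0.040 for rpn-5, 0.068 for rpn-7, 0.010 for rpn-9 and 0.038 for rpn-12, with SEs from 0.075 to 0.105.

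The lid subunit Rpn6 is encoded by a pair of paralogues, and both were measured. In worms rpn-6.1 is the copy known for raising proteasome activity when overexpressed. It read 8.55, 8.65, 8.48, 8.41 and 8.62 in xpa-1, against 8.80, 8.52, 8.51, 8.57 and 8.49 in N2, a difference of -0.036 (SE 0.080). The other copy, rpn-6.2, had the widest range of the 33 genes, 1.09 in log2. It read 5.55, 5.36, 5.17, 5 and 5.58 in xpa-1, and 5.36, 4.95, 5.52, 5.61 and 4.52 in N2. The difference was 0.14 (SE 0.220, unadjusted p = 0.54 in limma), and the N2 arrays enclosed all the xpa-1 arrays. The next widest range belonged to pbs-4, at 0.73.

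**Figure D2:**
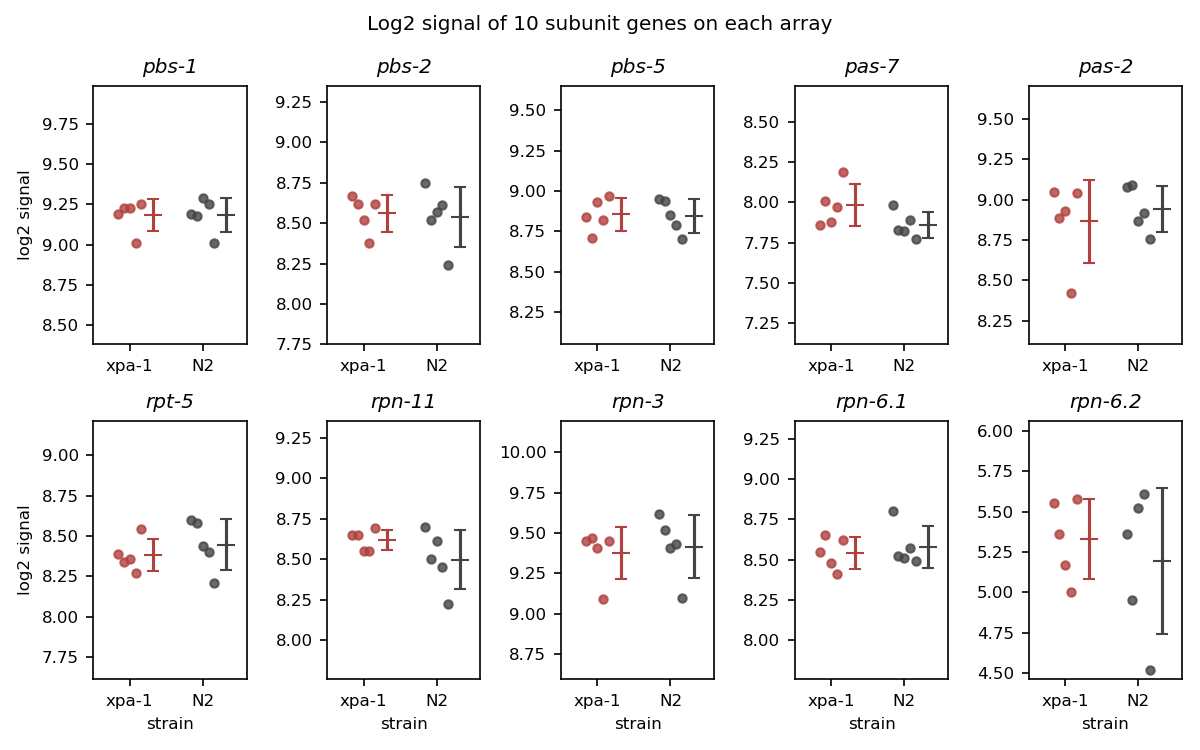
Log2 signal of 10 subunit genes in the 5 xpa-1 arrays (left) and the 5 N2 arrays (right); points are arrays in replicate order, and the bar beside them is the mean ± SD. Every panel spans the same number of log2 units on its own baseline; the strains overlap in each, and rpn-6.2 has the widest spread.

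The core and the regulatory particle were then set against each other. The median difference was 0.010 over the 14 core genes and 0.038 over the 19 regulatory genes. It was 0.02 over all genes, 0.034 over genes with a mean log2 signal above 4 and 0.018 over those above 8. Of the core genes 10 had a difference above 0 and of the regulatory genes 14. The share above 0 was 54.7% of all genes, 63.5% of those above 4 and 58.0% of those above 8. These counts describe the lists and were not tested. Without N2 replicate 5, the medians were -0.052 for the core and -0.018 for the regulatory particle, and 11 of the 33 genes were above 0 in place of 24. With arrays weighted by their quality in limma, 12 of 33 were above 0. The medians thus had no settled direction.

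Within each array, both particles kept nearly the same balance. As the mean deviation of core genes minus that of regulatory genes, where a gene's deviation is taken from its mean over the 10 arrays, the values were 0.032, -0.078, 0.022, -0.025 and 0.012 in xpa-1. They were -0.011, 0.035, 0.014, 0.003 and -0.005 in N2. The means were -0.007 ± 0.045 in xpa-1 and 0.007 ± 0.018 in N2 (SD, n = 5 each), so the strains differed by -0.014, less than the spread between arrays. The array farthest from balance was xpa-1 replicate 2. On that array 16 of 19 regulatory genes and 8 of 14 core genes were above their xpa-1 means, beside 45.6% of all genes.

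The arrays of 1 strain differed from each other more than the strains did, and the subunit genes moved together. On N2 replicate 1, all 33 genes were above their N2 mean, and on N2 replicate 5 all 33 were below it. On xpa-1 replicate 5, 31 of 33 were above their xpa-1 mean, and on xpa-1 replicate 4, 29 of 33 were below it. Of all genes, 48.9% were above on N2 replicate 1 and 51.7% below on N2 replicate 5. Likewise, 46.6% of all genes were above on xpa-1 replicate 5 and 52.9% below on xpa-1 replicate 4. N2 replicate 5 alone held the lowest of the 10 values for 25 of the 33 genes and xpa-1 replicate 4 alone for 7, while both shared it for pbs-1. The highest value lay on xpa-1 replicate 5 alone for 11 genes, on N2 replicate 1 alone for 10 and on xpa-1 replicate 2 alone for 4. N2 replicate 1 and xpa-1 replicate 2 shared the highest value for rpn-5 and rpn-7. What lay behind a low array was not tested. Less subunit RNA per cell and fewer cells rich in it cannot be told apart in RNA of whole worms. Limma's array weights were 0.50 and 0.56 for N2 replicates 5 and 1, and 1.35 and 0.79 for xpa-1 replicates 4 and 5.

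The sizes were modest. Against the mean of the other 4 N2 arrays, N2 replicate 5 was lower by a median of -0.30 in log2 over the 33 genes (0.811 times their signal), from -0.84 for rpn-6.2 to -0.048 for rpt-6. N2 replicate 1 was higher than the other 4 by a median of 0.19 (1.14 times), from 0.008 for pbs-1 to 0.31 for pbs-3. In xpa-1 the medians were 0.14 for replicate 5 and -0.15 for replicate 4. Over all genes the same medians were between -0.030 and 0 for these 4 arrays. Over genes above log2 8 they were -0.13 and 0.0675 on N2 replicates 5 and 1, and 0.0175 and -0.02 on xpa-1 replicates 5 and 4. Among the 1403 genes with a mean log2 signal above 8, a range that held all but 3 of the members, 29.9% were above their N2 mean on replicate 5. The share was 62.7% on N2 replicate 1, no higher than the 65.8% on replicate 4 and close to the 61.3% on replicate 2. Above the xpa-1 mean were 54.3% of these genes on xpa-1 replicate 5 and 43.9% on xpa-1 replicate 4.

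**Figure D3:**
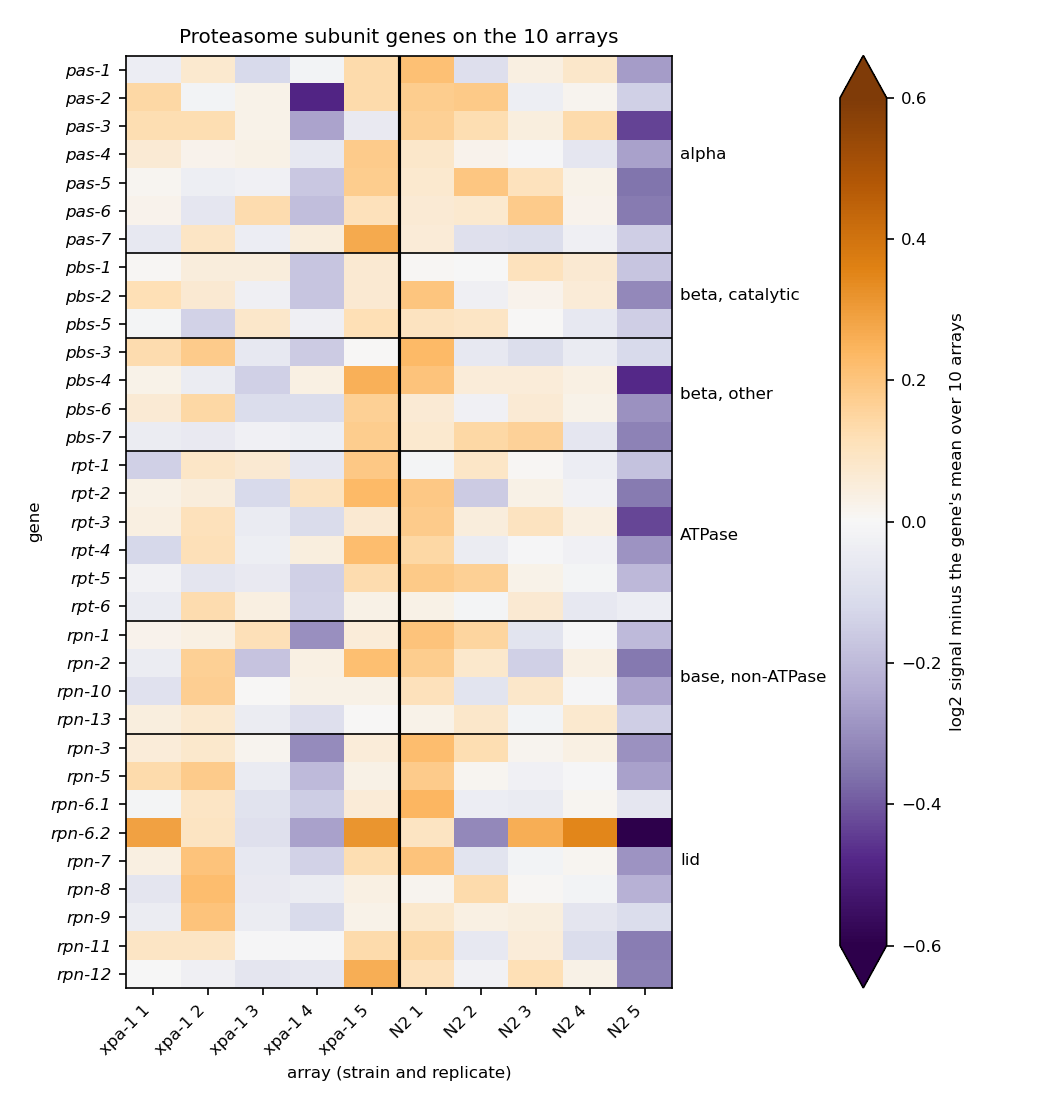
Deviation of each subunit gene from its own mean over the 10 arrays, in log2 signal (colour; values past ±0.6 take the end colour), with genes in rows by role and arrays in columns, xpa-1 on the left. The N2 replicate 5 column is below 0 in every row, N2 replicate 1 and xpa-1 replicate 5 are mostly above 0, and the strains show no common offset.

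Stage markers also differed between arrays. Of 12 oocyte and eggshell markers, among them the eggshell gene cpg-2 and the oocyte gene oma-1, all 12 were above their N2 mean on N2 replicate 1 and all 12 below it on N2 replicate 5. All 12 were also above the strain mean on xpa-1 replicate 5 and on N2 replicate 2. The mean of this list ranged from 9.70 to 10.05 in xpa-1 and from 9.37 to 10.11 in N2, and none of its markers was at 0 on any array. All 12 molting markers were below the strain mean on N2 replicate 1 and xpa-1 replicate 5, and all 12 were above it on N2 replicate 5. On N2 replicate 2, 5 of them were above and 7 below. On xpa-1 replicate 1 all 12 molting markers were above the xpa-1 mean as well, and there 19 of the 33 subunit genes were above theirs. The mean of the molting list ranged from 5.03 to 6.24 in xpa-1 and from 4.69 to 6.52 in N2, and no molting marker was at 0. Neuron markers (8 genes) were above the N2 mean in 7 cases on N2 replicate 5 and below it in 7 cases on N2 replicate 1, but all 8 were above it on N2 replicate 2, where 20 of the 33 subunit genes were above too.

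The 2 arrays with the highest oocyte means, N2 replicate 1 and xpa-1 replicate 5, were also the 2 with the highest means of both particles. N2 replicate 5 was lowest for all 3. The order of the arrays in between was not the same, since xpa-1 replicate 1 was the second lowest for oocyte markers, with a mean deviation of -0.11, but stood at 0.040 for the core. Early embryo markers (10 genes) stood at 0.32 on N2 replicate 1, -0.10 on xpa-1 replicate 5 and -0.11 on N2 replicate 5. They were lowest on xpa-1 replicate 4, at -0.29. On N2 replicate 1, xpa-1 replicate 5 and N2 replicate 5, intestine markers stood at -0.15, -0.10 and 0.13. Of these 7 genes, 2, 3 and 5 were above the mean of the array's own strain. The 2 below on N2 replicate 5 were vit-2 at 10.45 and vit-6 at 11.55, the lowest N2 value of each. Body wall muscle markers (8 genes) stood at -0.05, -0.23 and 0.19 on the same arrays, with 4, 1 and 5 of the 8 above the strain mean. On xpa-1 replicate 4, intestine markers stood at 0.13 and body wall muscle markers at 0.07. There 6 of 7 and 6 of 8 were above the xpa-1 mean. The part of stage composition in the array differences was not tested. Between the strains the lists overlapped, with an oocyte list mean of 9.83 ± 0.14 in xpa-1 and 9.78 ± 0.28 in N2, and a molting list mean of 5.72 ± 0.55 in xpa-1 and 5.81 ± 0.71 in N2 (SD, n = 5 arrays each).

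**Figure D4:**
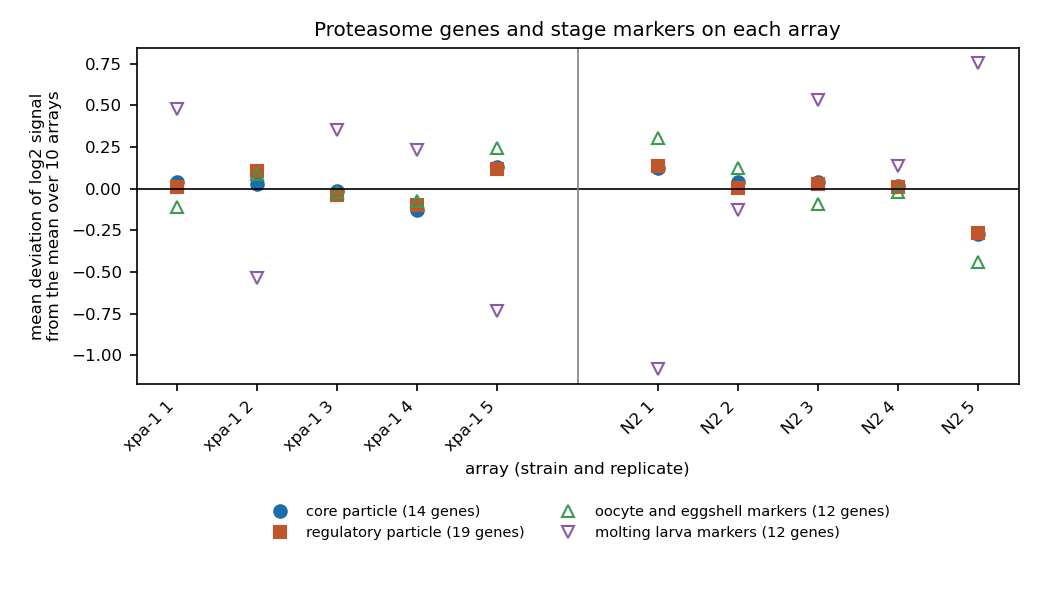
Mean deviation of log2 signal from the mean over 10 arrays for the core particle, the regulatory particle and 2 lists of stage markers, by array, xpa-1 left of N2. Core and regulatory points lie within 0.078 of each other on every array, while oocyte markers are lowest and molting markers highest on N2 replicate 5.

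Sperm markers (12 genes) followed another order of arrays. Their mean was 5.17, 4.61, 3.90, 3.88 and 4.17 in xpa-1, against 4.00, 3.14, 5.04, 5.20 and 4.25 in N2. The 4 highest values of rpn-6.2 were on xpa-1 replicates 1 and 5 and N2 replicates 3 and 4, and 3 of these arrays, all but xpa-1 replicate 5, had the highest sperm means. At the low end, rpn-6.2 read 4.52 on N2 replicate 5, where the sperm mean was 4.25. It read 4.95 on N2 replicate 2, which had the lowest sperm mean. The sperm marker spe-38 was at 0 on every N2 array and on xpa-1 replicates 3, 4 and 5. The part of sperm content in the rpn-6.2 values was not tested.

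For 6 members another probe set allowed a further reading of the strain difference. In 4 of them, pbs-3, rpn-2, rpt-1 and rpt-2, the probe sets differed in sign, and in pbs-7 and rpn-10 they did not. The other probe sets gave -0.10 for pbs-3 (SE 0.098), -0.17 for rpn-2 (SE 0.169), -0.06 for rpt-1 (SE 0.072) and -0.05 for rpt-2 (SE 0.085). None passed the test (limma adjusted p = 1 for each). The other rpn-2 probe set had means of 4.78 in xpa-1 and 4.96 in N2.

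The 33 genes lie on all chromosomes but X by RefSeq's annotation of WBcel235. There were 10 on chromosome I, 7 on II, 8 on III, 3 on IV and 5 on V, and 0 on X, which holds 13.8% of the measured genes. Chromosome I, which also carries xpa-1, held 30.3% of the members against 14.5% of the measured genes. The median strain difference was 0.016 over the 10 members on chromosome I and 0.038 over the other 23.

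Genes that act with the proteasome were read from 7 further lists, of which 70 genes were measured under the symbols listed. Of these, 0 passed the test in either direction in limma and 2 had an unadjusted p under 0.05, or 2.86% beside 3.32% of all genes. Of 7 listed proteasome and assembly genes outside the symbol rule, 2 were found, and both lay close between strains. The gene of the small lid subunit dss-1 stood at 8.42 ± 0.08 in xpa-1 and 8.37 ± 0.15 in N2, and psme-3, a homologue of the PA28 activator, at 7.52 ± 0.10 in xpa-1 and 7.53 ± 0.10 in N2.

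The SKN-1A pathway, which raises subunit genes when the proteasome is impaired, had 6 genes measured besides the member rpn-10, 5 above 0 and 1 below. The transcription factor gene skn-1 itself read 6.74, 6.70, 6.89, 6.69 and 6.39 in xpa-1, against 6.63, 6.94, 6.83, 6.83 and 6.83 in N2, a difference of -0.13 (SE 0.099, unadjusted p = 0.221 in limma). Its isoforms are not separated here. The glycanase gene png-1 and the protease gene ddi-1, both needed to activate SKN-1A, differed by 0.084 and 0.002, and sel-9 by 0.094.

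Delivery and ubiquitin removal were covered by 24 genes with a median difference of 0.039. The shuttle factor gene rad-23 read 8.71 ± 0.12 in xpa-1 and 8.71 ± 0.27 in N2, and ubh-4, a deubiquitinase bound to the proteasome, 8.17 ± 0.13 in xpa-1 and 8.20 ± 0.07 in N2. The smallest unadjusted p values there were those of ubxn-3 at 0.187, ubh-1 at 0.311 and cdc-48.2 at 0.384 in limma. Of 27 listed genes for ubiquitin and its activation and conjugation, 7 were found under their symbols, and none of the listed ubc symbols was. Among these 7, the dim uev-2 had the smallest unadjusted p (0.0148 in limma). It read 2.32, 1.58, 1, 1.58 and 1.58 in xpa-1, against 0, 1.58, 1, 0 and 0 in N2, which are the lowest steps of the scale. The ubiquitin gene ubq-2 differed by -0.060 and the conjugating enzyme gene let-70 by 0.044.

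Cullin ligases and NEDD8 (19 genes) had a median difference of 0.038, with cul-4 at 0.17, ddb-1 at -0.10 and cul-6 at 0.15 as those of smallest p. The COP9 signalosome, whose subunits share folds with the lid, had 6 genes measured. Its csn-2 read 5.98, 6, 5.95, 5.86 and 5.83 in xpa-1, against 6, 6.25, 5.93, 6.30 and 6.19 in N2 (difference -0.21, SE 0.086, unadjusted p = 0.0363 and adjusted p = 1 in limma). Its csn-5 and csn-6 differed by 0.10 and 0.058. Of 8 listed subunits of the translation factor eIF3 with the same folds, 6 were measured. Their median difference was 0.042, with cif-1 at 0.084, eif-3.C at 0.090 and eif-3.H at 0.18.

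The low arrays were low for these genes too. Of the 70, 65 were below their N2 mean on N2 replicate 5. There 51.7% of all genes and 69.9% of those with a mean log2 signal above 8 were below. On xpa-1 replicate 4, 58 of the 70 were below the xpa-1 mean, beside 52.9% of all genes and 55.6% of those above 8. By count, N2 replicate 1 did not stand out for the 70 genes, with 53 above the N2 mean, beside 55 on replicate 2 and 51 on replicate 4. On xpa-1 replicate 5, 56 of the 70 were above the xpa-1 mean, beside 51 on xpa-1 replicate 2. Of all genes 46.6%, and of those above 8 54.3%, were above on xpa-1 replicate 5. In the delivery list 22 of 24 were below on N2 replicate 5, and in the cullin list 18 of 19.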

How the data were processed

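RNA of 5 xpa-1 and 5 N2 collections was hybridised to Affymetrix arrays, 1 array each. The authors deposited a log2 signal for each probe set and used Affymetrix Expression Console, per the submitters' processing notes. How they summarised and scaled the probes is not stated here. Values below 5 were the log2 of whole numbers within 0.005, with a floor at 0. Precision is limited by how many arrays there are, and p-values measure only the spread between these collections. Control probe sets (77 of 22625) were left out of the tests. Genes were named through the platform annotation, with 20766 probe sets of 1 symbol, 887 of several and 895 of none, and all 33 members matched the RefSeq gene table.

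All 17118 genes were fitted with limma 3.58.1 in R 4.3.3 (strain as the only term, two-sided, Benjamini-Hochberg over all genes). The fit was tested on simulated data. The members and lists were chosen with earlier results of these data known. Named were all members, with values per array for the 3 largest differences each way, the catalytic genes and the rpn-6 pair. From the pathway lists, up to 3 genes of smallest p and 4 set genes were named. Listed symbols that were not found were not analysed here. Alternatives were other scalings, a filter at log2 4, an offset of 16, other probe set rules, other limma settings, the replicate number as a block and leaving out arrays.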

Additional observations from a re-analysis of the deposited data

Results flagged for a closer look

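Single values standing apart from their strain were sought in 72 groups of 5 arrays, and 13 were found, where chance gives about 1 in 20. The groups share arrays and are not independent. In N2 replicate 5, the core mean deviation was -0.271 against 0.014 to 0.122 on the other N2 arrays. Also low there were pas-3 at 8.98 (others 9.46 to 9.58), pbs-4 at 8.55 (9.06 to 9.23), pbs-6 at 8.81 (9.08 to 9.17) and rpt-3 at 9.1 (9.57 to 9.71). In xpa-1 replicate 4, pas-2 read 8.42 (others 8.89 to 9.05), pbs-1 9.01 (9.19 to 9.25), rpn-1 8.47 (8.79 to 8.88) and rpn-3 9.09 (9.41 to 9.47). High values were pbs-3 at 9.55 (others 9.2 to 9.27) and rpn-6.1 at 8.8 (8.49 to 8.57) in N2 replicate 1. In xpa-1 replicate 5, pbs-7 read 9.17 (others 8.94 to 8.97) and rpn-12 8.93 (8.6 to 8.67).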

How the results depend on the processing

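In limma 0 of the proteasome genes and 0 of the pathway genes that an alternative kept passed under any of 21 alternatives, of which 1, N2 replicates 1 and 5 left out together, was chosen after seeing the data. The smallest adjusted p of a member under any of them was 0.946. Under the filter on probe sets without an _s_at or _x_at ending 13 members were left, 3 core and 10 regulatory. The core minus regulatory value was -0.049 there (-0.014 as reported). This shift was just past the SD between arrays of 0.034, and the value rests on 3 core genes. Leaving out 1 array moved the core minus regulatory value between -0.024 and 0.003, and the difference of the medians between -0.034 and 0.015, the highest without xpa-1 replicate 2. The core median then ran from -0.052 to 0.050 and the regulatory median from -0.018 to 0.070. Of 33 members, 24 were above 0; 11 were without N2 replicate 5, 15 without N2 replicates 1 and 5, 12 with array weights, 18 with median centring and 31 without xpa-1 replicate 4. The sign of the difference held for 8 of 33 members under the alternatives run for them, but 6 of these 8 have no probe set without such an ending and were not run under that alternative. With the replicate number as a block 0 of 33 passed (smallest unadjusted p = 0.262 in limma). The deviations of same-numbered arrays correlated across genes with r from -0.27 to -0.03. No pairing by number was seen in r, which cannot exclude a shared batch because other differences between arrays enter it too.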
